A study of Mus musculus with 6 samples.

Results

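The 8 genes described here belong to the IL-6, G-CSF and acute-phase response. They are the cytokine genes Il6 and Csf3, the genes of the secreted acute-phase proteins Lcn2, Saa3 and Hp, and those of the transcriptional regulators Nfkbiz, Cebpb and Cebpd. They were taken by name as known targets and factors of the IkB-zeta and C/EBP pathway, and they were selected on their fold change between the study's groups, several being among the largest increases. Their difference between the groups is therefore given as a description with no p-value, and their calls are only counted beside those of all genes. All 8 were in the deposited table of 17872 genes and all 8 passed the filter on low counts, as did 13403 genes in all. The minimum of that filter was 0.609 CPM (counts per 1e+06 counts) in 3 libraries, which Il6 and Csf3 met in the labelled knockout libraries alone, with 1 and 2 WT libraries above it, so that these genes could enter only by being higher in the labelled knockout group.

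RNA was sequenced from BV2, an immortalised mouse microglial line, in 3 libraries labelled Tfam knockout and 3 labelled WT, with no other treatment on the labels. Tfam, the packaging and transcription factor of mitochondrial DNA, was targeted with CRISPR-Cas9, and the labels give continuous culture in puromycin at 2 µg/mL for all 6 samples, WT included. They do not say whether the WT cells also carried Cas9, or whether 1 clone or a mixed population was sequenced. Nor do they say that replicates were separate cultures, so the p-values measure a spread that may be technical. Libraries held 13850691 to 20889786 counts in the labelled knockout group and 14642397 to 28418133 in WT. Tfam mRNA was at 41.0, 42.7 and 43.2 CPM in the labelled knockout libraries, against 39.0, 38.5 and 37.1 CPM in WT, so it was not lower, and its level does not check the labels. In bulk RNA, fewer cells of a type and less RNA per cell cannot be told apart. Of 16 microglia and macrophage markers, 14 were in the table, and they summed to 3323 to 3760 CPM in the labelled knockout libraries, against 4545 to 5167 CPM in WT. In all, 12 reached 1 CPM in some library, led by Cd68 at 1003 ± 56.2 CPM in the labelled knockout libraries and 1264 ± 134 CPM in WT (SD, n = 3 each). The list did not move as one: Csf1r averaged 182 ± 6.25 CPM in the labelled knockout libraries and 501 ± 12.8 CPM in WT, and Adgre1 406 ± 7.87 CPM in the labelled knockout libraries and 265 ± 29.7 CPM in WT, both named after their values were seen. Tmem119 and Sall1 had at most 11 and 7 counts in any library, and P2ry12 and Itgam were not analysed here.

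Nfkbiz encodes IkB-zeta, a nuclear member of the IkB family that is induced by Toll-like receptor and interleukin-1 signals and binds NF-kB p50. The bZIP factors C/EBP-beta (Cebpb) and C/EBP-delta (Cebpd) bind beside NF-kB at the promoters of secondary inflammatory genes. Interleukin-6 and G-CSF are secreted and signal through their receptors to JAK kinases and STAT3, and IL-6 induces acute-phase proteins in the liver. Lipocalin 2 withholds iron by binding bacterial siderophores, serum amyloid A3 is the form of that family made by mouse macrophages, and haptoglobin binds free haemoglobin.

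The stretches upstream of the start sites of Il6, Lcn2 and Saa3 are shown because C/EBP, kappaB or AP-1 letters lie in them. Each is 250 bases long and ends just before a start site annotated by RefSeq on GRCm38.p6, which is another build than the authors' GRCm39. The windows are chr5:30012864-30013113 on the plus strand for Il6, chr2:32387740-32387989 on the minus strand for Lcn2 and chr7:46715677-46715926 on the minus strand for Saa3. Capitals mark C/EBP letters TTNNGNAA, kappaB letters (GGG, any 3 bases, then TTCC) and AP-1 letters TGANTCA, searched on both strands, with N any base. No marked matches of different motifs overlap.
Il6: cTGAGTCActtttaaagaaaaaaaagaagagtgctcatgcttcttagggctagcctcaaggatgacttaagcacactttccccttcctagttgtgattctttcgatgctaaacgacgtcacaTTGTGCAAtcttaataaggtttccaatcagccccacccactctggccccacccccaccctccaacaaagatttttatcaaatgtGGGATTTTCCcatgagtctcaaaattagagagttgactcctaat
Lcn2: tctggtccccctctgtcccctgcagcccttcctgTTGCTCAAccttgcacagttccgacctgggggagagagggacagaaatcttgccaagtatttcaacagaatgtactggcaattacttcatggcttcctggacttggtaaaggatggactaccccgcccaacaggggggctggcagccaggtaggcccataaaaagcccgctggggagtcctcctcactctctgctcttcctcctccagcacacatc
Saa3: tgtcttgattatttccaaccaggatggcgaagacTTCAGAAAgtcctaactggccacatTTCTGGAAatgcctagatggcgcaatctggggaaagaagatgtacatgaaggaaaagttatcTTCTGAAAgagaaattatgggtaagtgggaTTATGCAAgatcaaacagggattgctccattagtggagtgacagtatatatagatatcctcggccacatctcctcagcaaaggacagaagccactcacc
In Il6 the capitals are, in order, an AP-1 match, a C/EBP match whose first base is 128 bases before the start, and a kappaB match that begins 44 bases before it. The Lcn2 window held 1 C/EBP match, 216 bases before the start, and the Saa3 window held 4, the nearest of them at 99 bases. The window of Cebpb (chr2:167688665-167688914, plus strand) held none of these letters, and no match to the STAT letters TTCNNNGAA was found in any of the 4. RefSeq windows were matched for those 4 of the 8 genes, and Csf3, Hp, Nfkbiz and Cebpd are named only. Among all 32851 windows of this length, 36.8% held the C/EBP letters, 4.65% the kappaB letters, 6.75% the AP-1 letters and 7.02% the STAT letters. A match is a description of letters and not a measured binding site.

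The mRNAs also differ in AU-rich letters, the ATTTA pentamers of the 3′ UTR through which RNA-binding proteins are known to shorten the life of cytokine mRNAs. The 30 bases with the most pentamers are shown for both cytokines, whose mRNAs are known to be short-lived, with ATTTA in capitals. They are positions 129 to 158 of the Il6 3′ UTR and 24 to 53 of the Csf3 3′ UTR in GENCODE M21 (GRCm38).
Il6: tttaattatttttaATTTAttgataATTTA
Csf3: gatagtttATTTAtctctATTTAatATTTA
Il6 held 6 ATTTA in a 3′ UTR of 427 bases, or 14.1 per kilobase, and 0.464% of the 11201 tested genes with an annotated 3′ UTR were as dense. Csf3 held 6 in 669 bases, or 8.97 per kilobase, a density reached by 1.5% of genes. Nfkbiz held 4 in 1355 bases and Cebpd held 7 in 2900 bases, which 20.7% and 27.6% of genes matched per kilobase. None was found in the annotated 3′ UTRs of Cebpb, Saa3 and Hp, and Lcn2 had none annotated on the transcript used. This search was added after the expression values had been seen. The 2 cytokines with the densest pentamers had the lowest mean CPM of the members in WT. They also had the lowest in the labelled knockout libraries, at 26.9 ± 1.97 CPM for Il6 and 26.2 ± 2.38 CPM for Csf3. CPM does not correct for transcript length. Per length (TPM, defined below) both stayed lowest in WT but not in the labelled knockout libraries. There Cebpd was lowest by main transcript, at 27.8 ± 4.39 TPM, below Csf3 at 37.7 ± 1.53 and Il6 at 47.9 ± 2.86. By the union of exons Il6 was lowest, and Csf3 at 61.0 ± 2.63 TPM stood above Cebpd at 45.0 ± 7.2. The decay of the mRNAs was not measured, and a link between pentamers and levels was not tested.

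Both cytokine genes were close to the limit of detection in WT and well above it in the labelled knockout libraries. Il6 was at 27.0, 24.8 and 28.7 CPM in labelled knockout replicates 1 to 3 (raw counts 572, 432 and 412), against 0.533, 0.521 and 0.637 CPM in WT replicates 1 to 3 (raw counts 15, 8 and 9). The groups were far apart, and replicates of a group lay close together. Its log2 fold change, labelled knockout over WT throughout, was 5.57 ± 0.185 (SE), or 47.7-fold, the highest of all tested genes in this fit, although Lcn2 stood above Il6 in 6 of 14 alternative settings. Csf3, the granulocyte colony-stimulating factor, was at 28.4, 23.7 and 26.6 CPM in the labelled knockout libraries and at 0.498, 0.913 and 1.27 CPM in WT (raw counts 14, 14 and 18). WT replicate 1 was lowest and WT replicate 3 highest, and neither came near the labelled knockout libraries. The log2 fold change of Csf3 was 5.00 ± 0.216 (SE), and leaving out 1 library at a time gave 24.2-fold (without WT replicate 1) to 40.0-fold (without WT replicate 3). The ratio of Csf3 to Il6 counts was 1.05, 0.954 and 0.925 in the labelled knockout libraries, against 0.933, 1.75 and 2 in WT, where it rests on 8 to 18 counts per gene.

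**Figure D1:**
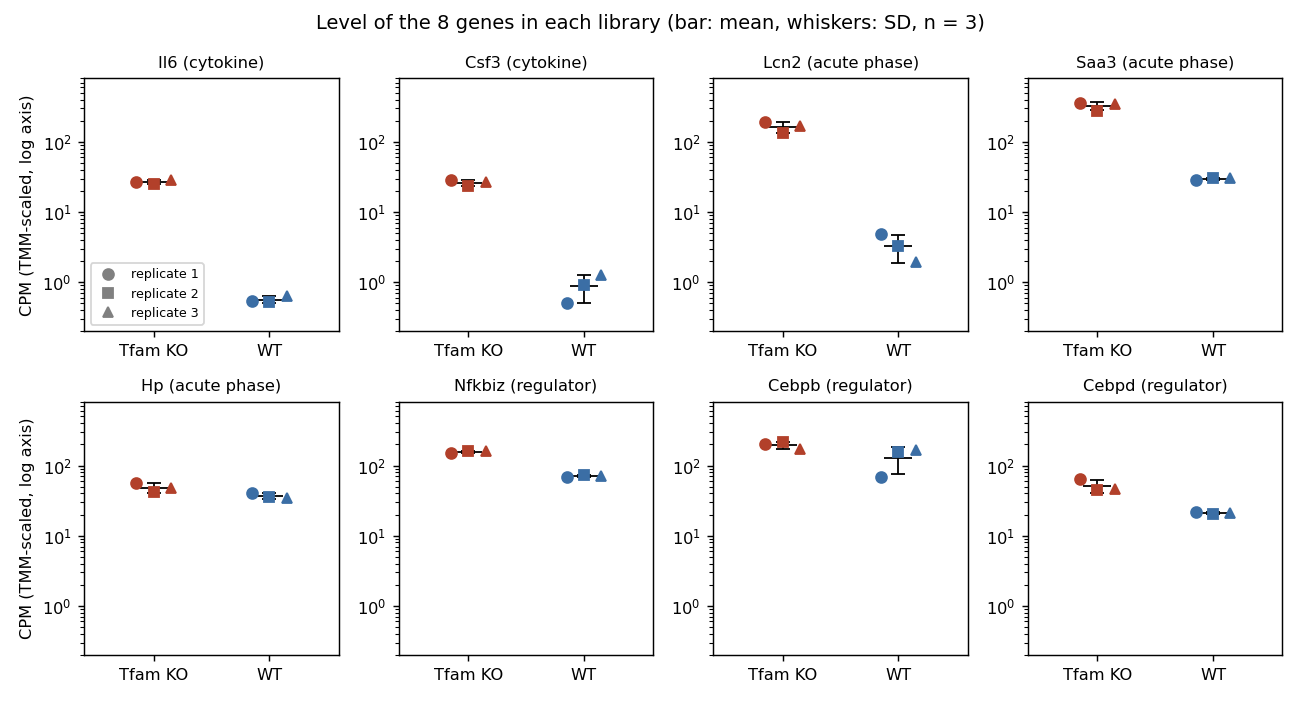
TMM-scaled CPM on a log axis for each of the 8 genes, with 3 libraries labelled Tfam knockout on the left and 3 WT libraries on the right of each panel. Points are libraries, marked by replicate number, and bars and whiskers are means and SDs. No panel shows overlapping groups, and the gap is smallest for Hp and Cebpb.

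The 3 acute-phase genes differed by very different amounts. Lcn2 reached 189, 133 and 169 CPM in the labelled knockout libraries, against 4.80, 3.26 and 1.91 CPM in WT. The WT libraries spread more widely, by a coefficient of variation of 43.5% against 17.3% in the labelled knockout group, with WT replicate 1 highest. Its log2 fold change was 5.52 ± 0.189 (SE), or 45.7-fold, and was 39.3-fold without WT replicate 3 and 63.2-fold without WT replicate 1. Saa3 reached 355, 273 and 342 CPM in the labelled knockout libraries, against 28.8 to 30.4 CPM in WT (raw counts 7529, 4755 and 4905, against 811, 467 and 424), a log2 fold change of 3.44 ± 0.0999 (SE). It was thus already a well-expressed gene in WT, where its replicates lay within a coefficient of variation of 2.79%. Hp was at 56.5, 41.6 and 47.5 CPM in the labelled knockout libraries and at 41.1, 36.1 and 34.5 CPM in WT. The lowest labelled knockout library was only just above the highest WT library, and the log2 fold change was 0.38 ± 0.111 (SE), which became 0.25 without labelled knockout replicate 1.

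Within a library, Saa3 stood at 6.29, 6.56 and 7.2 times the CPM of Hp in the labelled knockout group, against 0.702, 0.843 and 0.869 times in WT. These ratios compare libraries and not the levels of the genes, whose transcripts differ in length. Saa3 stood at 1.88, 2.05 and 2.03 times the CPM of Lcn2 in the labelled knockout libraries and at 6.01, 9.34 and 15.7 times in WT, so the distance between these genes was narrower and more even in the labelled knockout group.

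The 3 regulators differed less than Il6, Csf3, Lcn2 and Saa3, by 1.52- to 2.43-fold. Nfkbiz was at 151, 159 and 162 CPM in the labelled knockout libraries, against 68.6, 74.2 and 69.9 CPM in WT. These are the tightest replicates among the members in the labelled knockout group (coefficient of variation 3.69%), and the log2 fold change was 1.15 ± 0.0724 (SE). Cebpd was at 63.5, 44.8 and 45.8 CPM in the labelled knockout libraries, against 21.9, 20.3 and 21.3 CPM in WT, with replicate 1 of the labelled knockout group standing above the other two. Its log2 fold change was 1.28 ± 0.124 (SE). Cebpb was at 200, 215 and 170 CPM in the labelled knockout libraries, against 68.5, 155 and 165 CPM in WT. WT replicate 1 stood far below the other WT libraries, which came close to the lowest labelled knockout library. The log2 fold change of 0.61 ± 0.205 (SE) for Cebpb became 0.30 without WT replicate 1, and in WT replicates 2 and 3 the CPM ratio of Cebpb to Cebpd was 7.60 and 7.73, against 3.13 in WT replicate 1 and 3.15, 4.80 and 3.71 in the labelled knockout libraries.

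**Figure D2:**
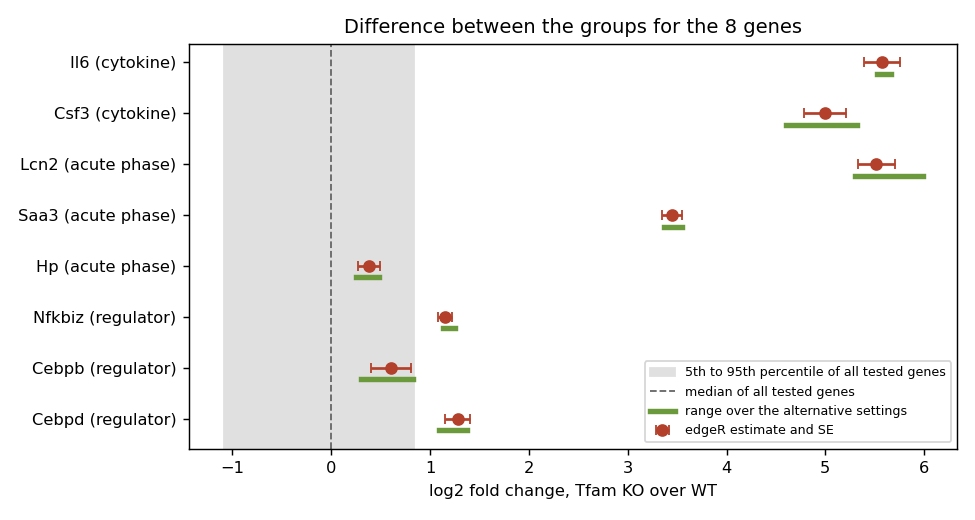
Log2 fold change (x axis, Tfam KO over WT) of the 8 genes with edgeR standard errors, and the range over the alternative settings as a green line under each point. The grey band is the 5th to 95th percentile of all tested genes, from -1.08 to 0.84, and the dashed line their median. Hp and Cebpb lie inside the band and the other 6 genes lie to its right.

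In all, 8 of 8 members were called higher by edgeR's quasi-likelihood test at a threshold of 0.05 on the adjusted p, beside 21.3% of all tested genes called higher, and in 8 of 8 the groups did not overlap with the labelled knockout group above, beside 26.3% of all tested genes. Higher genes made up 48.2% of all calls, and 61.8% with scaling by library totals. Nothing is read from the member counts, since the same contrast chose the genes. The members' log2 fold changes had a median of 2.36, and those of all tested genes a median of 0.0012. Calls were lost for Cebpb with DESeq2 and without labelled knockout replicate 1 or 2, and for Hp without labelled knockout replicate 1 or WT replicate 3. Without labelled knockout replicate 1, 6 members were called.

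Inside the groups the members did not all follow the same library. Replicate 2 was the lowest of the labelled knockout libraries for 6 of 8 members, namely Il6, Csf3, Lcn2, Saa3, Hp and Cebpd, and the highest for Cebpb. In WT, replicate 1 was the highest library for Lcn2, Hp and Cebpd and the lowest for 4 members, among them Csf3 and Cebpb. On the log2 scale, WT replicate 1 lay 0.61 above its group's mean for Lcn2 and 0.81 below it for Cebpb. Together the 8 genes took 0.109%, 0.0965% and 0.103% of all counts in labelled knockout replicates 1 to 3, against 0.0232%, 0.0301% and 0.0313% in WT. Summed CPM of the 5 secreted products ran from 497 to 657 in the labelled knockout libraries, against 68.4 to 75.7 in WT, while the 3 regulators summed to 378 to 418 CPM, against 159 to 256 in WT.

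**Figure D3:**
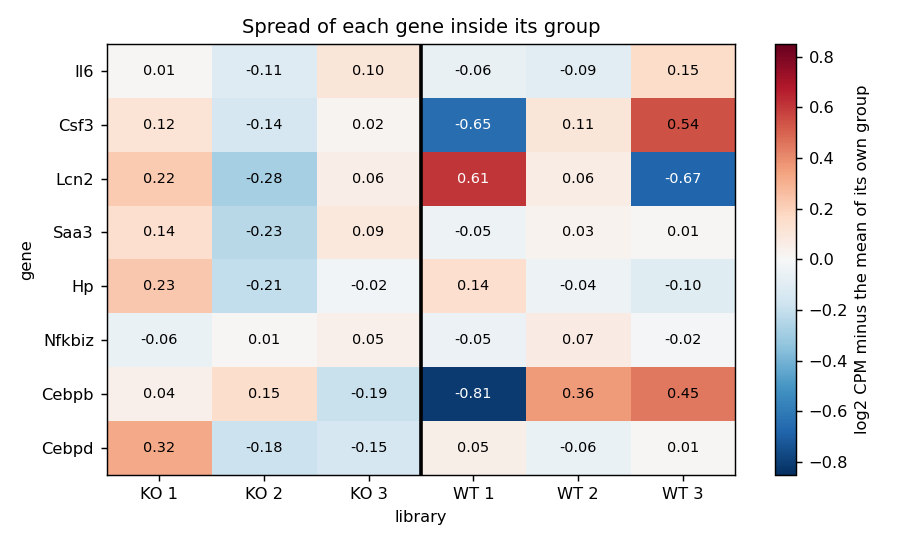
Deviation of each library's log2 CPM (prior count 2) from the mean of its own group, for each gene (rows) and library (columns, 3 labelled Tfam KO on the left of the black line and 3 WT on its right). The widest deviations are in WT, for Csf3, Lcn2 and Cebpb, and replicate 2 of the labelled knockout group is the lowest of its group in 6 rows.

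Levels can be compared between genes only per length, here in TPM, counts divided by transcript length and scaled to a common total of 1e+06, with the length of each gene's main annotated transcript in GENCODE M21. In the labelled knockout libraries Saa3 led at 1182 ± 110 TPM, followed by Lcn2 at 365 ± 45.4 and Cebpb at 265 ± 39.1 TPM (SD, n = 3). Nfkbiz at 77.9 ± 6.14 and Hp at 73.2 ± 7.55 TPM were neighbours within their spread, then came Il6 at 47.9 ± 2.86, Csf3 at 37.7 ± 1.53 and Cebpd at 27.8 ± 4.39 TPM. In WT the order began with Cebpb at 152 ± 56.7 TPM and Saa3 at 96.3 ± 3.5 TPM, whose spreads meet, went on with Hp at 49.9 ± 7.61, Nfkbiz at 30.9 ± 0.992 and Cebpd at 10.2 ± 1.03 TPM, and ended with Lcn2 at 6.66 ± 3.25, Csf3 at 1.12 ± 0.462 and Il6 at 0.888 ± 0.109 TPM. Saa3 stood above 99.2% of tested genes by this level in the labelled knockout libraries and above 87.3% in WT, while Il6 stood above 72.0% in the labelled knockout libraries and 8.54% in WT. The order depends on the length used. With the union of all annotated exons, an alternative added after the data were seen, Cebpb led in the labelled knockout libraries at 429 ± 62.5 TPM and Saa3 followed at 408 ± 38.7 TPM, within their spread, while Il6 came last of the 8 at 36.4 ± 2.18 TPM. In WT that length put Saa3 at rank 4 of the 8, at 32.5 ± 1.11 TPM and above 65.6% of tested genes.

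**Figure D4:**
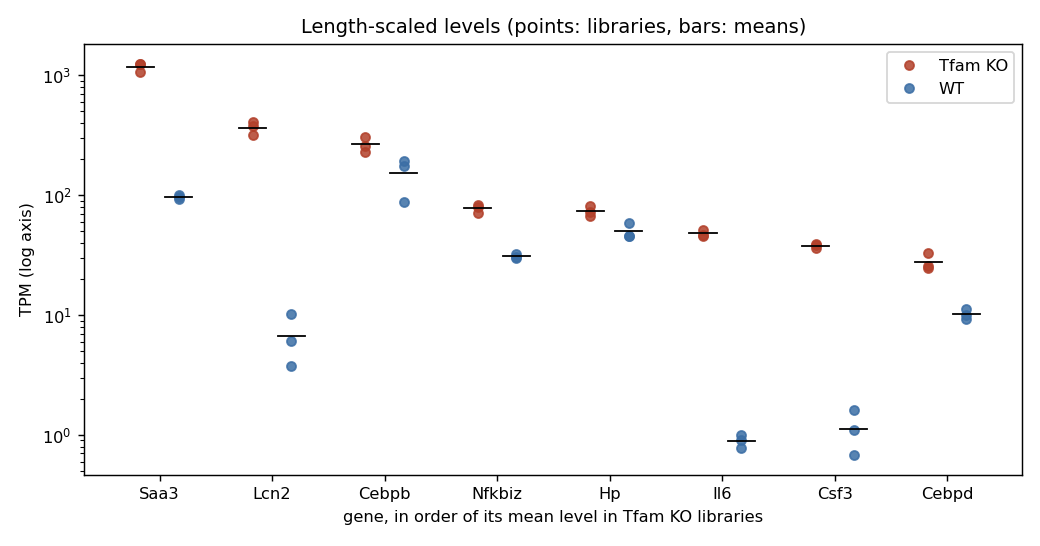
TPM on a log axis for the 8 genes, ordered by their mean in the libraries labelled Tfam KO, with those libraries left and WT right at each gene. Points are libraries and bars are means. Il6, Csf3 and Lcn2 are at 35.9 TPM or more in every labelled knockout library and at 10.2 TPM or less in every WT library.

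The kit does not mark strand, and 2 members share exon bases with a gene on the opposite strand, so their reads cannot be fully told apart. Cebpb shares 312 of 1504 exon bases with Tmem189, which was at 12.3 ± 1.2 CPM in the labelled knockout libraries and 14.4 ± 1.45 CPM in WT. Cebpd shares 562 of 3746 with Spidr, at 62.2 ± 1.98 CPM in the labelled knockout libraries and 50.5 ± 5.71 CPM in WT. Stretches of Saa3 transcripts of at most 137 bases matched 68 other genes at 95% identity or more, none of them of the SAA family, and the other members matched no gene over 100 bases beyond these overlaps. Markers of other cell types were counted because neutrophils, hepatocytes and stromal cells are known sources of these proteins. Neutrophil markers, 5 of 11 in the table, summed to 4.83 to 5.37 CPM in the labelled knockout libraries, against 19.0 to 24.0 CPM in WT, with Mmp8 the most abundant at 3.31 ± 0.281 CPM in the labelled knockout libraries and 14.8 ± 1.18 CPM in WT. Hepatocyte markers, 3 of 11 in the table, summed to 1.05 to 2.27 CPM in the labelled knockout libraries, against 2.90 to 4.16 CPM in WT, led by Apoa2, and Alb had at most 2 counts in a labelled knockout library and 9 in a WT library. Fibroblast markers, 2 of 8 in the table, summed to 0.488 to 0.614 CPM in the labelled knockout libraries, against 1.64 to 2.83 CPM in WT, led by Pdgfra. Astrocyte and neuron markers, 4 of 8 and 3 of 8 in the table, summed to at most 2.83 CPM in any labelled knockout library and 3.13 CPM in any WT library, led by Slc1a2 and Map2. Endothelial markers, 5 of 6 in the table, summed to 34.7 to 42.1 CPM in the labelled knockout libraries, against 68.2 to 81.0 CPM in WT, with Vwf at 30.5 ± 2.96 CPM in the labelled knockout libraries and 61.4 ± 6.7 CPM in WT. That list did not move as one, in genes named after their values were seen. Kdr was also lower, at 3.65 ± 0.196 CPM in the labelled knockout libraries and 8.11 ± 0.0971 CPM in WT. Pecam1, Cdh5 and Tek did not pass, with log2 fold changes of 0.29, 0.16 and 0.09. The neutrophil, hepatocyte, fibroblast and endothelial sums were thus lower in the labelled knockout libraries, as was the microglia and macrophage sum given above, and the part of these differences in the members' values was not tested.

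The surroundings of the pathway were read from 9 gene lists, in which 89 different genes could be tested. Of these, 44 were higher, 20 were lower and 25 did not pass, beside 21.3% of all tested genes higher and 22.9% lower, with adjusted p-values from edgeR's quasi-likelihood test over all tested genes. Other genes known to need IkB-zeta in macrophages, or to be raised with it by IL-17 or IL-1, were 4 higher and 0 lower of 5 tested, with a median log2 fold change of 0.80. Ceruloplasmin (Cp), a ferroxidase, rose 6.08-fold to 32.7 ± 3.47 CPM, against 5.16 ± 1.86 in WT (adjusted p = 5e-09, edgeR). The protease inhibitor Slpi rose 2.57-fold, the IL-27 subunit Ebi3 1.75-fold and complement C3 1.49-fold. Endothelin 1 (Edn1) did not pass, at 0.988 ± 0.0978 CPM in the labelled knockout libraries and 1.18 ± 0.256 CPM in WT. Il12b, the shared subunit of IL-12 and IL-23, was under the filter, with raw counts of 11, 16 and 19 in the labelled knockout libraries and 1, 3 and 2 in WT. Il1f9, an IL-36 cytokine, had 4, 9 and 0 counts in the labelled knockout libraries and 0 in each WT library, and the other 5 genes of the list were not analysed here.

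Among relatives of the member regulators, the Rel and IkB family was mostly higher. All 11 could be tested, of which 10 rose and none fell (median log2 fold change 1.05). Nfkbia, the inhibitor IkB-alpha, reached 334 ± 25.2 CPM in the labelled knockout libraries, against 89.3 ± 3.66 CPM in WT (3.75-fold, adjusted p = 6.31e-12, edgeR). Bcl3, another nuclear IkB protein, rose 2.61-fold, Nfkbie 2.54-fold and Nfkb1, the precursor of p50, 2.42-fold, while Nfkbid, the nuclear IkB-NS, rose 1.36-fold. Rela, which encodes p65, did not pass (96.5 ± 5.8 CPM in the labelled knockout libraries and 89.9 ± 4.79 CPM in WT). The C/EBP family list, which also holds the pseudokinases that bind C/EBP proteins or related bZIP factors, was 3 higher and 2 lower of 6. Ddit3, the stress-induced CHOP, rose 2.79-fold to 162 ± 7.18 CPM, against 58.2 ± 3.85 in WT, Trib3 rose 2.44-fold and Cebpg 1.40-fold. Cebpa, a factor of myeloid differentiation, fell by 0.94 ± 0.194 (SE) on the log2 scale, to 3.88 ± 0.36 CPM in the labelled knockout libraries against 7.46 ± 1.23 CPM in WT (adjusted p = 0.000819, edgeR). Trib1, a pseudokinase known to direct C/EBP-alpha to degradation, fell by 0.93.

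Receptors and relays for the 2 cytokines were called in both directions, 6 higher and 4 lower of 18 tested, and their median log2 fold change was 0.09. These are 33.3% and 22.2%, beside 21.3% higher and 22.9% lower among all tested genes. The IL-6 receptor gene Il6ra was at 32.5, 33.4 and 31.7 CPM in the labelled knockout libraries, against 100, 102 and 108 CPM in WT. The groups were far apart in the direction opposite to Il6 itself, and Il6ra fell by 1.67 ± 0.079 (SE) on the log2 scale (adjusted p = 3.63e-11, edgeR). Il6st, the shared signal subunit gp130, did not pass, at 120 ± 13.3 CPM in the labelled knockout libraries and 111 ± 0.763 CPM in WT, although it did with library totals (adjusted p = 0.0464, edgeR). The G-CSF receptor gene Csf3r was low in both groups and did not pass (3.45 ± 1.02 CPM in the labelled knockout libraries and 2.87 ± 0.297 CPM in WT), and neither did Stat3 (98.7 ± 2.01 CPM in the labelled knockout libraries and 95.0 ± 3.8 CPM in WT). Pim1, a kinase gene known as a STAT target, rose 3.13-fold, the kinase Jak2 1.99-fold and the STAT3 inhibitor Pias3 1.53-fold. Socs3, the feedback inhibitor of gp130 signalling, rose 1.30-fold with overlapping groups (adjusted p = 0.0288, edgeR), a call lost without labelled knockout replicate 3 or WT replicate 1 or 2 (adjusted p up to 0.141). Besides Il6ra, the phosphatase Ptpn6 fell by 0.40, the survival gene Mcl1 by 0.37 and the AP-1 gene Junb by 0.47.

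Of the related cytokines of the IL-6, IL-12 and colony-stimulating factor families, 8 of 16 symbols could be tested. Of these, 5 were higher and 2 lower, beside 21.3% higher and 22.9% lower among all tested genes. Lif, which signals through gp130 like IL-6, rose 2.96-fold to 4.72 ± 0.496 CPM, against 1.61 ± 0.198 in WT (adjusted p = 8.43e-05, edgeR), and Osm rose 1.28-fold beside Ebi3. Calls for Clcf1 (2.58-fold) and Il23a (1.74-fold) depended on the libraries kept. That for Clcf1 was lost without labelled knockout replicate 2 or WT replicate 1 or 3 (adjusted p up to 0.226, edgeR), and that for Il23a without labelled knockout replicate 1 or 3 or WT replicate 1 or 2 (adjusted p up to 0.0886, edgeR). The macrophage growth factor Csf1 fell by 0.55 and Il34, the other ligand of its receptor, by 0.85. The acute-phase list had 7 of 37 symbols tested, with 5 higher and 2 lower, and most of its liver genes were not analysed here. Beside Cp and C3, the serpin Serpina3g rose 2.19-fold and the zinc transporter Slc39a14 1.30-fold, and Serpina3f rose 2.90-fold, to 1.32 ± 0.654 CPM in the labelled knockout libraries against 0.41 ± 0.273 CPM in WT. The call for Serpina3f was lost without labelled knockout replicate 1 or 3 or WT replicate 2 or 3 (adjusted p up to 0.109, edgeR). Metallothionein 1 (Mt1) fell by 1.27 on the log2 scale, to 83.5 ± 8.84 CPM in the labelled knockout libraries against 202 ± 40.2 CPM in WT. Complement C4b fell by 0.70, a call lost without any 1 library other than labelled knockout replicate 3 and with library totals (adjusted p up to 0.17, edgeR).

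Genes that receive or handle the secreted products were 2 higher and 4 lower of 10 tested, and their median log2 fold change was -0.26. These are 20% and 40%, beside 21.3% higher and 22.9% lower among all tested genes. Tlr2, a receptor reported to respond to serum amyloid A, rose 2.01-fold and the scavenger receptor Cd36 1.35-fold. Hmox1, haem oxygenase 1, which degrades haem, fell by 1.40 ± 0.0946 (SE) on the log2 scale, to 250 ± 20.8 CPM in the labelled knockout libraries against 659 ± 75.8 CPM in WT (adjusted p = 3.51e-09, edgeR). Lrp1 fell by 0.67, Scarb1 by 0.49, and Il6ra belongs to this list as well. Among factors known to act on Il6 mRNA stability, 4 were higher and 3 lower of 12, or 33.3% and 25%. Zc3h12a, which encodes the RNase Regnase-1 that cleaves Il6 mRNA, rose 3.00-fold to 64.5 ± 2.7 CPM, against 21.6 ± 2.25 CPM in WT (adjusted p = 1.08e-09, edgeR), its relative Zc3h12c rose 2.51-fold and Lin28b 2.03-fold. Rc3h2, a roquin protein, rose 1.22-fold, a call lost without labelled knockout replicate 2 or 3 or WT replicate 2 (adjusted p up to 0.107, edgeR). The AU-rich element binding proteins Zfp36l1 and Zfp36 fell by 1.65 and 0.67 and Hnrnpd (AUF1) by 0.37, while Arid5a, which is known to stabilise Il6 mRNA, did not pass (73.2 ± 1.03 CPM in the labelled knockout libraries and 71.1 ± 2.22 CPM in WT).

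Upstream receptors and relays were 8 higher and 4 lower of 17 tested, with a median log2 fold change of 0.03. These are 47.1% and 23.5%, beside 21.3% higher and 22.9% lower among all tested genes. Il1b rose 3.54-fold, to 6.90 ± 1 CPM in the labelled knockout libraries against 1.91 ± 0.438 CPM in WT, and Tnf rose 2.59-fold, to 513 ± 43.1 CPM against 198 ± 33.2 CPM in WT (adjusted p = 7.37e-06 and 1.53e-08, edgeR). The negative regulator Irak3 rose 3.09-fold and the TNF receptor Tnfrsf1b 1.57-fold. Traf6, the ubiquitin ligase that relays interleukin-1 and Toll-like receptor signals, fell by 1.62 ± 0.117 (SE), to 14.1 ± 2.48 CPM in the labelled knockout libraries against 43.5 ± 1.66 CPM in WT (adjusted p = 9.05e-09, edgeR). Irak4, Tnfrsf1a and Irak1 fell by 0.32, 0.29 and 0.25. These 3 calls were lost with library totals and with limma on the deposited log2 table (adjusted p up to 0.124), and those for Irak4 and Tnfrsf1a also without WT replicate 2, among other libraries.

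**Figure D5:**
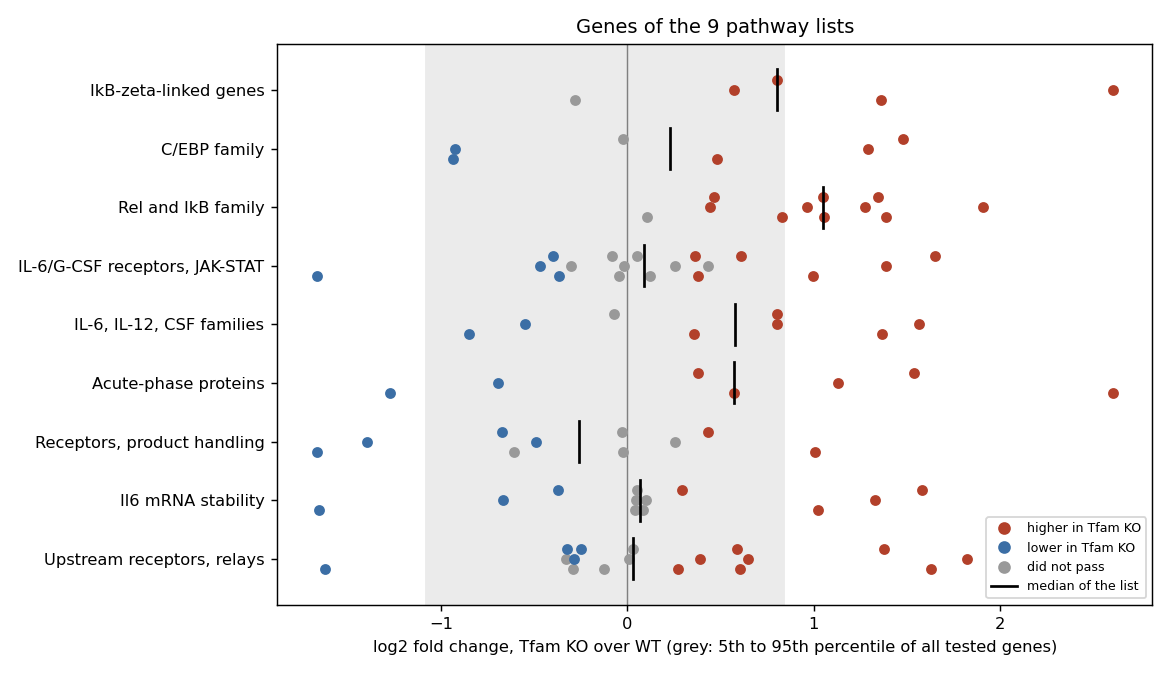
Log2 fold change (x axis, Tfam KO over WT) of every tested gene in the 9 pathway lists (rows), with red for genes called higher, blue for genes called lower and grey for genes that did not pass. Black bars are list medians and the grey band is the 5th to 95th percentile of all tested genes. The Rel and IkB family lies wholly to the right of 0, with Rela nearest to it, and the lowest point of the receptor lists is Il6ra.

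Outside the lists, the genes whose pattern over the 6 libraries lay closest to the members' mean profile were Rab11fip1, Cxcl2, Traf1, Rsad2 and Id3. Closeness was the root-mean-square distance of mean-centred log2 CPM, which was 0.176 for Rab11fip1, an endosome recycling adaptor, 0.182 for the chemokine Cxcl2 and 0.189 for the TNF receptor adaptor Traf1. The interferon-induced antiviral gene Rsad2 and Id3, an inhibitor of helix-loop-helix factors, followed at 0.309 each. Rab11fip1 averaged 130 ± 4.31 CPM in the labelled knockout libraries and 19.8 ± 2.28 CPM in WT (log2 fold change 2.70), and Cxcl2 279 ± 16.8 CPM in the labelled knockout libraries and 40.1 ± 6.12 CPM in WT (log2 fold change 2.79). As the members' profile is set mainly by the difference between the groups, these distances describe likeness in that difference.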

How the data were processed

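Per the labels, total RNA was taken from BV2 cells with TRIzol and its polyA RNA sequenced in 6 NEBNext Ultra RNA libraries, a kit that does not mark strand. The submitters' processing notes name HISAT2 2.1.0, featureCounts 2.0.0, SAMtools 1.9 and bcl2fastq 2.17 and build GRCm39, while the sources used here do not give the treatment of reads with several matches. The authors deposited whole-number counts per gene, which were used as deposited. Their second deposited table holds log2 values, each equal, from the values, to log2 of the count scaled to a common total plus 8. Every column was mapped to a sample by its name.

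The quasi-likelihood test of edgeR 4.0.16 (R 4.3.3) was run on the counts of 13403 genes kept by filterByExpr, with TMM scaling, no covariates, Benjamini-Hochberg adjustment over those genes and a threshold of 0.05. The step was tested on simulated counts that had the same spread setting for all genes and changes in well-covered genes only. That test does not cover low counts such as those of Il6 and Csf3 in WT. Each SE was taken as the absolute log2 fold change divided by the root of the F statistic. Alternatives used DESeq2 1.42.0, limma 3.58.1, other scalings and filters, a replicate block, and each library left out. Near-identical transcripts were sought with BLAST 2.17.0. Transcript lengths and 3′ UTRs came from GENCODE M21 (GRCm38, 99.3% of genes matched by symbol), and promoters from RefSeq on GRCm38.p6.

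The members, gene lists and tests were chosen with earlier results of these data known. Genes named are the members, genes of the fixed lists (in lists with over 8 called genes the 4 largest increases and 4 largest decreases at a mean of at least 1 CPM, with further genes named after their values were seen), the most abundant marker per cell type and the 5 nearest profiles. Total counts per library ran from 13850691 to 28418133.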

Additional observations from a re-analysis of the deposited data

How the results depend on the processing

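The count of called genes was 5926, with 48.2% of them higher in the labelled knockout libraries. It lay between 5255 and 6207 under the alternatives that kept every library and between 4847 and 5743 with 1 library left out, and higher genes made up 61.8% of 6206 calls with library totals and 61.6% of 6207 with limma on the deposited log2 table. The median log2 fold change of the members, 2.36, lay between 2.28 and 2.46 under every alternative run, and no member changed direction. Members called higher were 8, beside 21.3% of all tested genes, and were 7 with DESeq2 and 6 to 8 with 1 library left out. In the IL-6, IL-12 and colony-stimulating factor list, 2 genes were higher in place of 5 with at least 5 CPM in 3 libraries, a filter that leaves fewer genes to test. In the acute-phase list, 1 gene was lower in place of 2 with library totals, and 1 to 2 with a library left out. In the list of upstream receptors and relays, 1 gene was lower in place of 4 with library totals and with limma on the deposited log2 table, and the cause was not tested. Of the values of named genes other than the members under the alternatives, 855 kept direction and call, 34 lost the call and 1 gained it. Of the members' fold changes, 110 stayed within their spread and 2 (Nfkbiz, higher with library totals and with the log2 table) moved by more. This tally leaves out the members' calls, of which Cebpb lost 3 (with DESeq2 and without labelled knockout replicate 1 or 2) and Hp lost 2 (without labelled knockout replicate 1 or WT replicate 3). With stricter C/EBP letters (TTGCNNAA), 3 of 4 member windows matched, as before, beside 9.56% of all windows. Of the Saa3 matches only that at 99 bases remained.

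Replicate numbers are shared between the groups, but same-numbered libraries did not deviate together (correlations of -0.10, -0.11 and 0.04), and 2 of 6 libraries correlated best with their own number. The replicate block gave 5255 calls and changed no member's call. Depth limits Il6 and Csf3 in WT, at 8 to 18 counts per library.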
